A study of Mus musculus with 40 samples.

Results

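Gclc, Gclm, Slc7a11, Txnrd1, Srxn1, Nqo1 and Sod2 are 7 genes of the glutathione and thioredoxin antioxidant systems, and their expression was followed in mouse lung after aspiration of an allergen or of saline alone. They were chosen by name, with earlier results of these data known. Every probe set whose symbol in the platform annotation is that of a listed gene was taken, which gave 15 of 22690 probe sets and 7 of the 12393 genes tested. Gclm, Slc7a11 and Nqo1 had 1 probe set each, Gclc had 2, Txnrd1 and Sod2 had 3 each and Srxn1 had 4. The brightest probe set over all arrays stands for its gene unless another is named.

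Cells hold reactive oxygen species and other electrophiles in check with glutathione, a tripeptide, and with thioredoxin, a small protein, and NADPH returns both to their reduced form. Gclc and Gclm are the catalytic and modifier subunits of glutamate-cysteine ligase, the rate-limiting enzyme of glutathione synthesis, and Slc7a11 is the transporter that imports cystine for it. Txnrd1 is the cytosolic thioredoxin reductase, Srxn1 is sulfiredoxin, which repairs over-oxidised peroxiredoxins, Nqo1 is a quinone reductase and Sod2 is the manganese superoxide dismutase of mitochondria. All but Sod2 are standard targets of NRF2, the product of Nfe2l2. KEAP1 holds this transcription factor at a low level until oxidants or electrophiles modify KEAP1, and NRF2 then binds antioxidant response elements together with a small MAF protein. Slc7a11 is also a target of ATF4, the factor of the amino acid stress response, and Sod2 is a well known target of NF-kB in inflammation. In the lung the pathway is known for its part in defence against inhaled oxidants.

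RNA of whole lung was measured on 40 arrays in 8 groups of 5. The groups were C3H mice 24 h after allergen, C3H mice 24 h after PBS, C3H mice 6 h after allergen, C3H mice 6 h after PBS, and the same 4 groups of AJ mice, which the descriptions call hyperresponsive. Every group was given phosphate-buffered saline (PBS) by aspiration, with the allergen or without it, so PBS arrays are not untreated lungs, and no group without aspiration was analysed here. Titles name the allergen OVA and descriptions name it HDM, so it is called allergen here. All 40 descriptions name AJ although 20 titles carry C3H, and strain here follows the titles. Arrays are numbered within each group without a statement that they come from separate mice, and the p-values below therefore rest on a spread among samples that may be technical. The study set allergen against PBS in 2 strains at 2 times, and the comparisons below follow that design.

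Intensities are in arbitrary units on a linear scale. Fold changes are differences of log2(intensity + 16), given with their standard error (SE), and an adjusted p is that of limma with Benjamini-Hochberg adjustment over all 12393 genes, two-sided. A gene is said to have risen or fallen where that p was under 0.05. Lung was checked against its markers: 12 alveolar epithelium markers such as Sftpc summed to between 27063 and 39718 on every array. Markers of cardiac and skeletal muscle (20 genes) summed to between 2945 and 21238, and markers of adipose tissue (8 genes) to between 1142 and 11322.

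The start-site regions are shown because 6 of the genes are known NRF2 targets and Sod2 is a known NF-kB target. RefSeq windows of 250 bases before to 50 bases after a start site (GRCm38.p6) were held for 6 of the 7 genes, all but Gclc, with 3 windows for Txnrd1. Searched on both strands were the core of the antioxidant response element in its forms TGACNNNGC and TGAGNNNGC, the AP-1 site TGANTCA, the amino acid response core TGATGNAA and the NF-kB consensus. The sequences run 5′ to 3′ on the strand of the gene, and capitals mark each match on either strand. The 5 windows shown are those with a match.
Srxn1, chr2:152105274-152105573, plus strand: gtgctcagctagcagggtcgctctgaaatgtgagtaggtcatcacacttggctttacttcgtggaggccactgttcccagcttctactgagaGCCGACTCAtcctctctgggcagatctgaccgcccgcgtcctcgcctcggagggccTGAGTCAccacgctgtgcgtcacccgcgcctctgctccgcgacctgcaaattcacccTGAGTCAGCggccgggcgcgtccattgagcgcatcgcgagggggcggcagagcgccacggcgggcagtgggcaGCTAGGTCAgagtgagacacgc
Slc7a11, chr3:50443564-50443863, minus strand: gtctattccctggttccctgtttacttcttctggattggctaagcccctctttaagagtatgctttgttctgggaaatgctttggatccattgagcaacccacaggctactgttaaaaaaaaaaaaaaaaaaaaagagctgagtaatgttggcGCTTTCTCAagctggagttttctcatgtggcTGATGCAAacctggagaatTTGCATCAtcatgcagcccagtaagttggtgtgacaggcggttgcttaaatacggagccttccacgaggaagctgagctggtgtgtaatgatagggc
Txnrd1, the second of its windows, chr10:82858956-82859255, plus strand: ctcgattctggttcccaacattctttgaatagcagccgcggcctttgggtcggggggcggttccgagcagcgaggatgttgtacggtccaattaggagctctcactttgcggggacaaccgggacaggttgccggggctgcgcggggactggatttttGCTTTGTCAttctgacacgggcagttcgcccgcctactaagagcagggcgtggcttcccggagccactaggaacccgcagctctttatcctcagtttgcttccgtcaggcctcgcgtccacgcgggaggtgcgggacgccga
Gclm, chr3:122245307-122245606, plus strand: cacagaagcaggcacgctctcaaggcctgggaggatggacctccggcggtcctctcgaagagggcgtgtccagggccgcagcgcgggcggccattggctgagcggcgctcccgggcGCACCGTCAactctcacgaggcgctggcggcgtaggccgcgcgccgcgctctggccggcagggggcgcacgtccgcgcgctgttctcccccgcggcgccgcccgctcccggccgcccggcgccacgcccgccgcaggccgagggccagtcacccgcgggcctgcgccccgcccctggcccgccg
Sod2, chr17:13007589-13007888, plus strand: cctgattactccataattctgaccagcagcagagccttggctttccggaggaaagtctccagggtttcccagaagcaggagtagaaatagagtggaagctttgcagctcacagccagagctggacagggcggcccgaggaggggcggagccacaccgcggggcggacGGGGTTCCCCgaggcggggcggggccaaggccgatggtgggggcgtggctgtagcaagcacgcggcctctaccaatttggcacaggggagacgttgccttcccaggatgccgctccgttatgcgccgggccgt

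Positions are those of the leftmost base of a match, with the start site at 0. Srxn1 held antioxidant response cores at -158, -45 and 28 and AP-1 sites at -102 and -45, where the AP-1 site lies inside the antioxidant response core. Slc7a11 held 2 amino acid response cores in opposite orientation, at -66 and -47, and an antioxidant response core at -97. The shown window of Txnrd1 held an antioxidant response core at -92 and that of Gclm at -134. Sod2 held an NF-kB match at -83, matched on both strands. The window of Nqo1 and the other windows of Txnrd1 held none of these motifs. Bases outside the windows were not searched, so a site of any of these genes may lie beyond them. Among 32851 windows of the same length, 27.79% held an antioxidant response core of either form, 7.808% an AP-1 site, 3.969% an amino acid response core and 8.459% an NF-kB match, so the antioxidant response core is common among promoters. A match is a run of letters and not a measured binding site.

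Among PBS arrays, Gclc, Txnrd1 and Srxn1 were lower at 24 h than at 6 h in both strains, by between 1.89-fold (Txnrd1) and 3.94-fold (Gclc) in C3H and between 2.45-fold (Txnrd1) and 3.59-fold (Srxn1) in AJ. Slc7a11 also fell in AJ. In C3H mice 3 of the 7 genes fell and 0 rose, where 1.45% of all genes fell. In AJ mice 4 fell and 0 rose, where 2.48% of all genes fell. Gclm, Nqo1 and Sod2 did not pass in either strain. In RNA of whole tissue, fewer cells of a type and less RNA per cell cannot be told apart.

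Gclc had the largest change of the 7 genes in C3H mice. It had intensities of 308, 440.5, 341, 336 and 444 in C3H PBS lungs at 24 h, against 2141, 1009.8, 1878, 1902 and 994 at 6 h. The groups did not overlap, and the 6 h arrays themselves stood in 3 high and 2 low ones. The log2 change was -1.98 ± 0.20, adjusted p = 2.42e-08. In AJ PBS lungs Gclc had 739, 302, 489.6, 472 and 439.8 at 24 h, against 1719, 1855, 1424, 1458 and 1102 at 6 h, again without overlap (-1.63 ± 0.20, adjusted p = 1.33e-06). Over all 8 groups, each of the 20 arrays at 24 h (302 to 739) was below each of the 20 arrays at 6 h (994 to 2526).

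Txnrd1 had 430.3, 567, 378, 465 and 454 in C3H PBS lungs at 24 h, against 784, 893, 836, 988 and 881 at 6 h. In AJ PBS lungs it had 381, 315, 378, 370.0 and 437 at 24 h, against 934, 1042, 1025, 877 and 840.5 at 6 h. In each strain every 24 h array was below every 6 h array. The log2 changes were -0.92 ± 0.10, adjusted p = 7.78e-08 in C3H and -1.29 ± 0.10, adjusted p = 2.04e-11 in AJ. Across all treatments the 20 arrays at 24 h (315 to 567) again lay below the 20 arrays at 6 h (784 to 1588). For Txnrd1 this held for the brightest probe set and not for its other 2, as given with the probe sets.

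Srxn1 had 109.9, 159, 142, 199 and 164 in C3H PBS lungs at 24 h, against 433, 330.2, 302, 316 and 233 at 6 h. In AJ PBS lungs it had 106, 114, 150.4, 104 and 132 at 24 h, against 396, 521, 481, 565 and 423 at 6 h, and neither pair of groups overlapped. The log2 changes were -0.98 ± 0.16, adjusted p = 0.000183 in C3H and -1.84 ± 0.16, adjusted p = 3.26e-10 in AJ. Non-overlapping groups with lower values at 24 h were found for 3 of the 7 genes in each strain, where 2.20% of all genes in C3H and 3.14% in AJ were so placed.

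Slc7a11, the cystine transporter, had 42.4, 44.8, 58.1, 58.7 and 38.9 in AJ PBS lungs at 24 h, against 82.0, 130.2, 84.9, 93.5 and 58.6 at 6 h. The highest 24 h array just passed the lowest 6 h array, and the log2 change was -0.69 ± 0.15, adjusted p = 0.00556. In C3H PBS lungs the change was -0.32 ± 0.15 (adjusted p = 0.299), with 31.0, 52.1, 60.5, 44.5 and 53.4 at 24 h, against 61.2, 61.0, 58.7, 71.2 and 63.7 at 6 h. The values of the other 3 genes were -0.20 ± 0.16 in C3H and -0.41 ± 0.16 in AJ for Gclm, -0.36 ± 0.15 and -0.30 ± 0.15 for Nqo1, and -0.18 ± 0.10 and -0.18 ± 0.10 for Sod2, with adjusted p from 0.128 to 0.579.

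**Figure D1:**
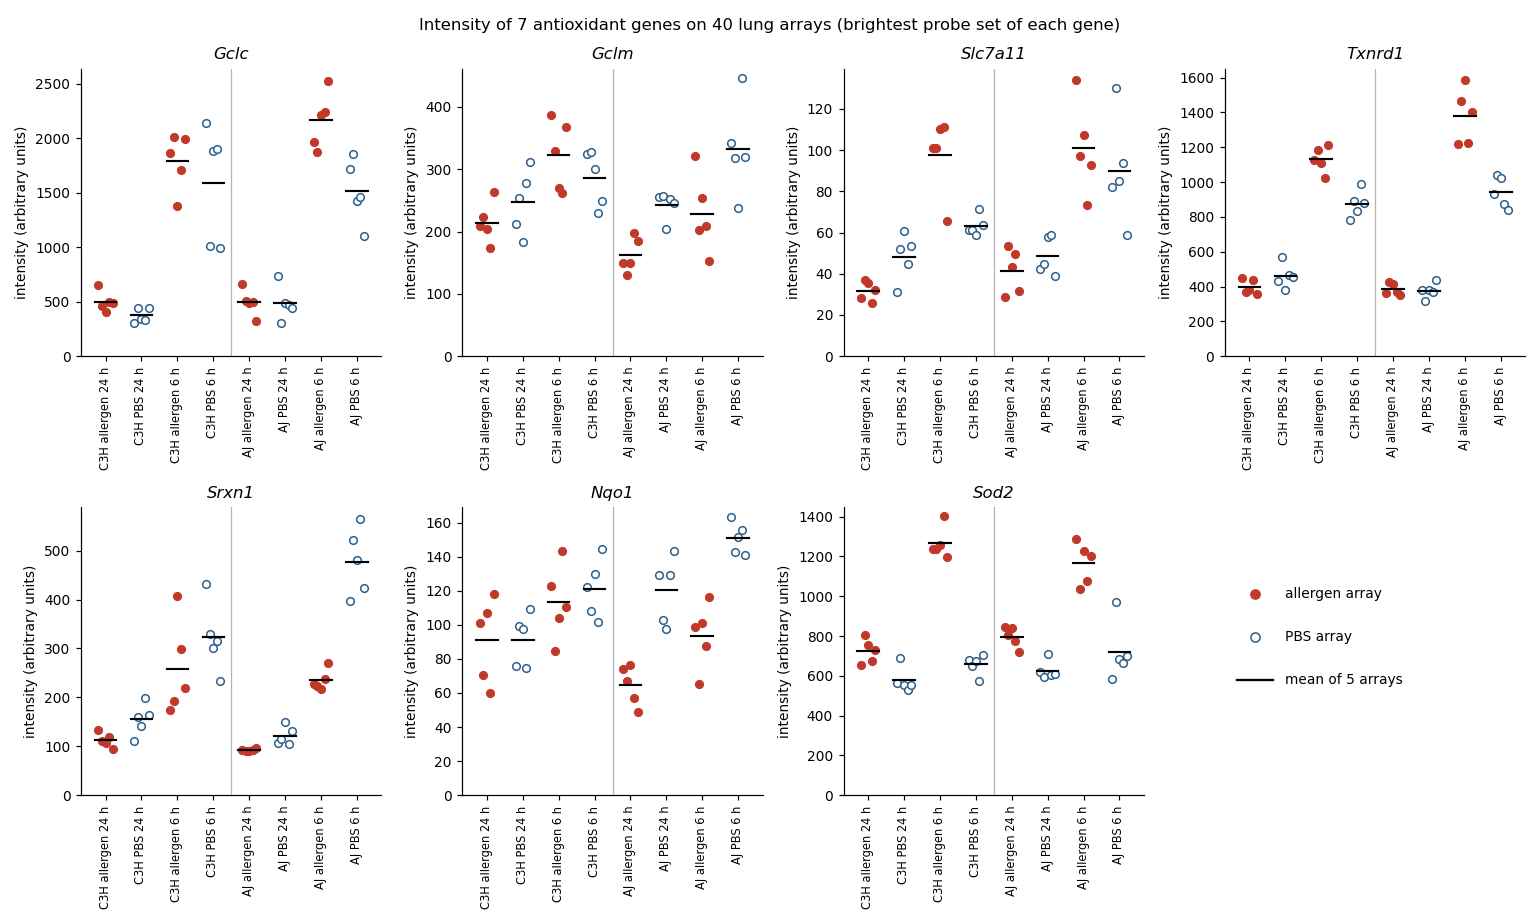
Intensity (arbitrary units, linear axis from 0) of the brightest probe set of each gene on 40 arrays, 5 per group, with allergen arrays filled, PBS arrays open and a line at the mean of 5 arrays. For Gclc and Txnrd1 all 20 arrays at 24 h lie below all 20 arrays at 6 h, and Sod2 at 6 h is higher with allergen in both strains.

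Other genes of these pathways were set beside the 7. Among 14 further NRF2 targets, 4 fell and 0 rose in C3H PBS lungs at 24 h, and 4 fell and 2 rose in AJ. Over all genes, 1.45% fell and 1.76% rose in C3H, and 2.48% fell and 2.90% rose in AJ. Hmox1, the inducible heme oxygenase, averaged 94.3 ± 26.2 at 24 h and 359 ± 149 at 6 h in C3H (-1.71 ± 0.25, adjusted p = 3.8e-05), and 108 ± 12.6 at 24 h and 533 ± 117 at 6 h in AJ (-2.13 ± 0.25, adjusted p = 4.73e-07; SD, n = 5 each). Osgin1, a stress-induced growth inhibitor, changed by -2.36 ± 0.25 in C3H and -1.90 ± 0.25 in AJ. Blvrb, a biliverdin reductase, went the other way in AJ, by 2.20 ± 0.35 (adjusted p = 9.29e-05). The others that fell were Cbr3, a carbonyl reductase, and Akr1b8, an aldo-keto reductase, in both strains, and the other riser in AJ was Cbr1, of the same family as Cbr3. These 3 are named for the small counts, after their values were seen. With arrays centred on their medians 2 fell and 0 rose in C3H, and 3 fell and 1 rose in AJ.

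Of 11 genes of NRF2 and its regulators, 3 fell and 0 rose in C3H PBS lungs at 24 h, and 3 fell and 1 rose in AJ. Maff, a small MAF partner of NRF2, changed by -1.67 ± 0.18 (adjusted p = 6.94e-08) in C3H and -1.55 ± 0.18 (adjusted p = 3.52e-07) in AJ. Sqstm1, an adaptor that binds KEAP1, fell by 0.56 ± 0.09 and 0.59 ± 0.09 on the log2 scale. Nfe2l2 itself did not pass, at 0.19 ± 0.15 in C3H and -0.26 ± 0.15 in AJ (adjusted p = 0.592 and 0.349), and Keap1 was at -0.40 ± 0.10 (adjusted p = 0.017) and -0.21 ± 0.10 (adjusted p = 0.216). Bach1, a repressor that competes with NRF2 for its elements, was at -0.30 ± 0.14 (adjusted p = 0.271) and -0.57 ± 0.14 (adjusted p = 0.0112), and the riser in AJ was Bach2, a related repressor, named after its values were seen.

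The ATF4 targets had 8 of 14 members lower and 0 higher at 24 h in each strain, with a list median of -0.50 in C3H and -0.67 in AJ, beside -0.004 and -0.015 over all genes. The count of falls was between 3 and 8 in C3H and between 6 and 9 in AJ over the other settings, and between 3 and 7 in C3H and 6 and 8 in AJ with an array left out. Trib3, a pseudokinase induced by ATF4, changed by -0.52 ± 0.15 in C3H and -0.64 ± 0.15 in AJ, and Asns, asparagine synthetase, by -0.29 ± 0.14 (adjusted p = 0.279) and -0.86 ± 0.14 (adjusted p = 8.92e-05). Slc3a2, the heavy chain that pairs with Slc7a11 in the transporter, fell by 0.58 ± 0.11 in C3H and 0.73 ± 0.11 in AJ, and was picked for this role after its values were seen.

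Of 15 NF-kB feedback genes and early targets, 6 fell and 0 rose in C3H at 24 h, and 5 fell and 1 rose in AJ. Cxcl1, a neutrophil chemokine, changed by -1.80 ± 0.33 and -1.97 ± 0.33, and Il1b, a cytokine, by -0.87 ± 0.24 and -0.99 ± 0.24, and the riser in AJ was Traf1. The 27 measured genes of glutathione synthesis and cycle split, with 2 higher and 3 lower in C3H and 3 higher and 2 lower in AJ. The fallers were Slc3a2 and Chac1, a glutathione-degrading enzyme and ATF4 target, in both strains and Gsr, glutathione reductase, in C3H. The risers were Mgst2 in both, Gsto1 in C3H, and Glo1 and Oplah in AJ. These names other than Gsr and Gsto1 were picked after their values were seen. Over all genes, 1.76% rose and 1.45% fell in C3H, and 2.90% rose and 2.48% fell in AJ. With arrays centred on their medians, 1 of the 27 rose in each strain, and 3 fell in C3H and 2 in AJ. Over all settings the count of risers in AJ was between 0 and 4. Gsr stood at -0.42 ± 0.11 (adjusted p = 0.0277) and -0.18 ± 0.11 (adjusted p = 0.359), and Gss, glutathione synthetase, at -0.02 ± 0.11 and 0.23 ± 0.11 (adjusted p = 0.969 and 0.243). Of 18 thioredoxin and peroxiredoxin genes 1 fell in C3H (Sesn2, a sestrin, also named after its value was seen) and 0 passed in AJ, and Txn1, thioredoxin, was at 0.30 ± 0.10 and 0.00 ± 0.10 (adjusted p = 0.099 and 0.998).

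Among 149 markers in 14 lists of cell types, at most 1 marker of any list passed in each direction between the PBS times. The 15 neutrophil markers summed to 1729.8 to 2061 at 24 h and 1975 to 3622 at 6 h in C3H PBS lungs, and to 1563 to 2363 and 1473 to 3599.8 in AJ, with 0 markers passing. The median of the muscle markers was 0.88 in AJ and 0.19 in C3H. With the means of the muscle and adipose lists as covariates, Gclc changed by -1.97 in C3H and -1.68 in AJ, and every call on the 7 genes between the PBS times was kept.

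At 6 h after the allergen, Sod2 and Txnrd1 were higher than in PBS lungs in both strains. In AJ lungs Srxn1, Nqo1 and Gclm were lower at the same time. Of the 7 genes, 3 rose and 0 fell in C3H, where 7.62% of all genes passed, and 2 rose and 3 fell in AJ, where 19.0% passed. The median over the 7 genes was 0.23 in C3H and 0.16 in AJ, beside -0.0016 and -0.067 over all genes. These comparisons use the 6 h PBS arrays that the comparison of the PBS times also used.

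Sod2 had 1236, 1239.8, 1260.3, 1403 and 1197 in C3H lungs 6 h after allergen, against 679.8, 649.6, 676, 572 and 706 after PBS. In AJ lungs it had 1289, 1038, 1227, 1076 and 1202 after allergen, against 584, 972, 686, 665 and 701 after PBS. Every allergen array was above every PBS array of its strain, and in AJ a PBS array at 972, well above the other 4, came closest. The log2 changes were 0.93 ± 0.10, adjusted p = 1.72e-08 in C3H, a level 1.91 times that of PBS, and 0.70 ± 0.10, adjusted p = 1.01e-06 in AJ, 1.62 times that of PBS.

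Txnrd1 had 1219, 1465, 1588, 1224 and 1405 in AJ lungs 6 h after allergen, against 934, 1042, 1025, 877 and 840.5 after PBS. In C3H lungs it had 1129, 1183, 1109.8, 1022 and 1215 after allergen, against 784, 893, 836, 988 and 881 after PBS. The groups did not overlap in either strain, although the gap was narrow in C3H. The log2 changes were 0.54 ± 0.10, adjusted p = 8.91e-05 in AJ and 0.37 ± 0.10, adjusted p = 0.017 in C3H. The C3H call was lost without PBS array 1 (0.33, adjusted p = 0.0596), with median centring (0.34, adjusted p = 0.0597), with the probe sets averaged (0.21, adjusted p = 0.462) and with only these 2 groups fitted (adjusted p = 0.0852).

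Slc7a11 had 101, 101, 110.2, 111 and 65.6 in C3H lungs 6 h after allergen, against 61.2, 61.0, 58.7, 71.2 and 63.7 after PBS. The first 4 allergen arrays were above every PBS array and the last was within their range. The log2 change was 0.51 ± 0.15, adjusted p = 0.0345. This call was lost when any of 7 of the 10 arrays was left out (allergen 1, 2, 3 or 4, or PBS 1, 2 or 3), with values from 0.46 to 0.50 and adjusted p from 0.0675 to 0.0845. It was also lost with a pseudocount of 1 (adjusted p = 0.055), with only these groups fitted (0.0663) and without the 2 arrays whose titles carry the letter b (0.0742). In AJ the change was 0.16 ± 0.15 (adjusted p = 0.576), with 134, 96.9, 107, 73.3 and 92.8 after allergen, against 82.0, 130.2, 84.9, 93.5 and 58.6 after PBS.

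Gclc did not pass in either strain at 6 h. In AJ it had 1963, 1871, 2215, 2238 and 2526 after allergen, against 1719, 1855, 1424, 1458 and 1102 after PBS, and the groups did not overlap (0.53 ± 0.20, adjusted p = 0.0657). It passed there with median centring (0.58, adjusted p = 0.0412), with its probe sets averaged (0.42, adjusted p = 0.0355), with only these groups fitted (adjusted p = 0.0259) and without PBS array 2 (0.60, adjusted p = 0.047). In C3H the change was 0.23 ± 0.20 (adjusted p = 0.599), and the allergen arrays at 1862, 2012, 1379.6, 1705 and 1988 lay inside the range of the PBS arrays.

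Srxn1 was lower with allergen in AJ lungs at 6 h. It had 227, 224, 216, 238 and 271 after allergen, against 396, 521, 481, 565 and 423 after PBS. The 5 allergen arrays lay close together and all below the lowest PBS array, and the log2 change was -0.97 ± 0.16, adjusted p = 1.44e-05, a level 1.95 times lower. In C3H lungs Srxn1 had 174, 193, 408, 299 and 218 after allergen, against 433, 330.2, 302, 316 and 233 after PBS. There the groups overlapped widely, and the change of -0.34 ± 0.16 did not pass (adjusted p = 0.214), although it did without allergen array 3, the highest of its group (-0.52, adjusted p = 0.0218).

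Nqo1 had 98.6, 65.1, 101, 87.6 and 117 in AJ lungs 6 h after allergen, against 163, 143, 151, 156 and 141 after PBS, without overlap (-0.62 ± 0.15, adjusted p = 0.00159). In C3H it had 123, 84.9, 104, 143 and 110.5 after allergen, against 123, 108, 129.8, 102 and 145 after PBS, with broad overlap (-0.10 ± 0.15, adjusted p = 0.808). Gclm had 321, 202, 254, 209 and 152 in AJ lungs after allergen, against 343, 317, 237, 446 and 320.2 after PBS, and the groups overlapped (-0.53 ± 0.16, adjusted p = 0.0157). The Gclm call was lost without allergen array 5 (-0.41, adjusted p = 0.0801), without PBS array 4 (-0.42, adjusted p = 0.0738), with median centring (adjusted p = 0.0516) and with only these groups fitted (0.0889). In C3H Gclm was at 0.16 ± 0.16 (adjusted p = 0.654).

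**Figure D2:**
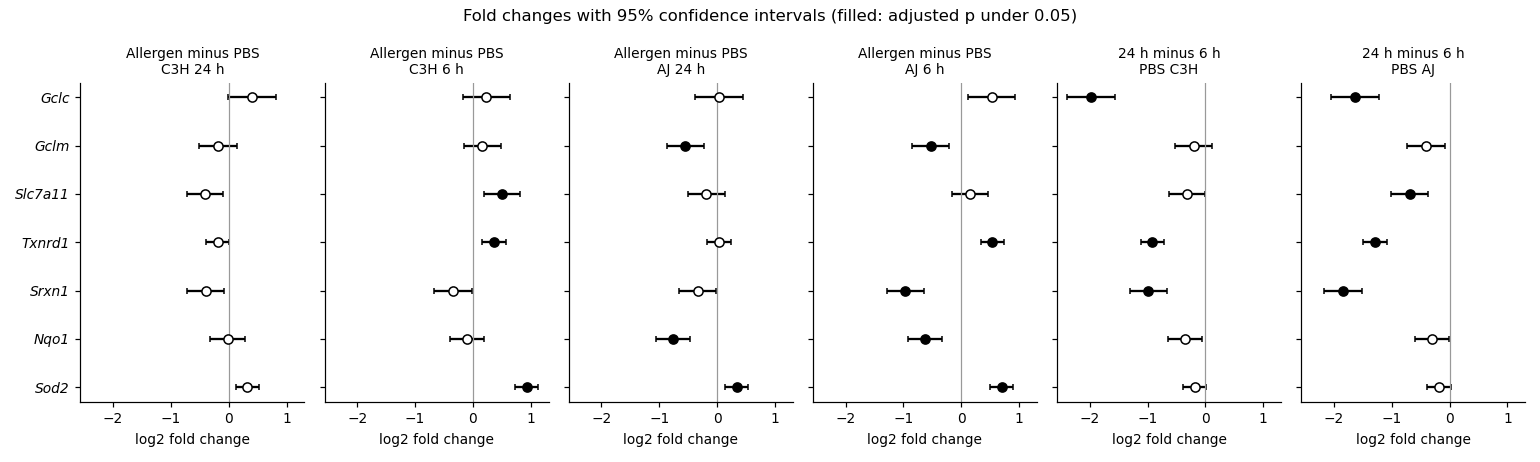
Log2 fold change of each gene (brightest probe set) with its 95% confidence interval in 6 comparisons, allergen minus PBS and 24 h minus 6 h, filled where the adjusted p was under 0.05. At 6 h in AJ lungs Sod2 and Txnrd1 lie above 0 and Srxn1, Nqo1 and Gclm below it, and between the PBS times Gclc, Txnrd1 and Srxn1 lie below 0 in both strains.

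Of 14 further NRF2 targets, 7 fell and 0 rose in AJ with allergen at 6 h, and 5 fell and 1 rose in C3H. Over all genes, 12.0% fell and 7.03% rose in AJ, and 3.69% fell and 3.93% rose in C3H. The list medians were -0.34 in AJ and -0.40 in C3H. In AJ the falls were led by Hmox1, which averaged 163 ± 65.6 after allergen and 533 ± 117 after PBS (-1.68 ± 0.25, adjusted p = 2.79e-06). Osgin1 fell in both, by 0.95 ± 0.25 in AJ and 1.16 ± 0.25 in C3H. Gsta3, a glutathione transferase, changed by -0.92 ± 0.25 in AJ, and Ephx1, the microsomal epoxide hydrolase, and Aox1, an aldehyde oxidase, by -0.68 ± 0.12 and -0.65 ± 0.16 in C3H. The count of falls was 6 in AJ with either other scaling, and between 1 and 5 in C3H over all settings.

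Of the 11 NRF2 regulators, 2 rose and 1 fell in AJ. Maff rose by 0.93 ± 0.18 (adjusted p = 0.000156), with 374 ± 46.9 after allergen and 188 ± 20.3 after PBS. Bach1 rose by 0.55 ± 0.14 (adjusted p = 0.00354), and Sqstm1 changed by -0.39 ± 0.09. In C3H 1 of 11 fell and 0 rose, with Maff at 0.31 ± 0.18 and Bach1 at 0.30 ± 0.14 (adjusted p = 0.357 and 0.226). Nfe2l2 was at -0.15 ± 0.15 in AJ and 0.03 ± 0.15 in C3H (adjusted p = 0.584 and 0.946).

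In glutathione synthesis and cycle, 2 of 27 rose and 6 fell in AJ at 6 h, and 0 rose and 3 fell in C3H. Of all genes, 7.03% rose and 12.0% fell in AJ, and 3.93% rose and 3.69% fell in C3H. Gss fell by 0.55 ± 0.11 in AJ and 0.45 ± 0.11 in C3H, while Gsto1, an omega-class transferase, rose by 0.64 ± 0.12 in AJ. With arrays centred on their medians, 4 rose and 5 fell in AJ. Of 18 thioredoxin and peroxiredoxin genes, 2 rose and 0 fell in AJ. These were Glrx, glutaredoxin, at 1.14 ± 0.23, and Msrb1, a methionine sulfoxide reductase, at 0.46 ± 0.13. In C3H 1 fell, Msrb2, of the same enzyme family, by 0.89 ± 0.15. Of 7 genes of superoxide and peroxide removal 2 fell in AJ and 0 passed in C3H. These were Cat, catalase, at -0.51 ± 0.15, and Gpx3, the plasma glutathione peroxidase, at -0.43 ± 0.14. Of 9 genes that supply NADPH, 1 fell in each strain, Idh2, the mitochondrial isocitrate dehydrogenase, by 0.43 ± 0.15 in AJ and 0.57 ± 0.15 in C3H, and 0 passed in AJ with median centring.

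Of 14 ATF4 targets, 5 fell and 1 rose in AJ at 6 h, and 1 fell in C3H. Trib3 changed by -0.96 ± 0.15 in AJ and -0.73 ± 0.15 in C3H, and Asns and Psat1, enzymes of asparagine and serine synthesis, by -0.91 ± 0.14 and -0.83 ± 0.13 in AJ. The riser was Atf4 itself (0.40 ± 0.13, adjusted p = 0.0235), named after its value was seen, and 0 of the list rose with quantile normalization. NF-kB feedback genes and early targets rose in 12 of 15 members in AJ and 10 of 15 in C3H, with 0 falls in either. Cxcl1 rose by 3.49 ± 0.33 in AJ and 3.08 ± 0.33 in C3H, Ccl2, a monocyte chemokine, by 2.96 ± 0.27 and 1.92 ± 0.27, and Il1b by 2.60 ± 0.24 and 2.01 ± 0.24.

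**Figure D3:**
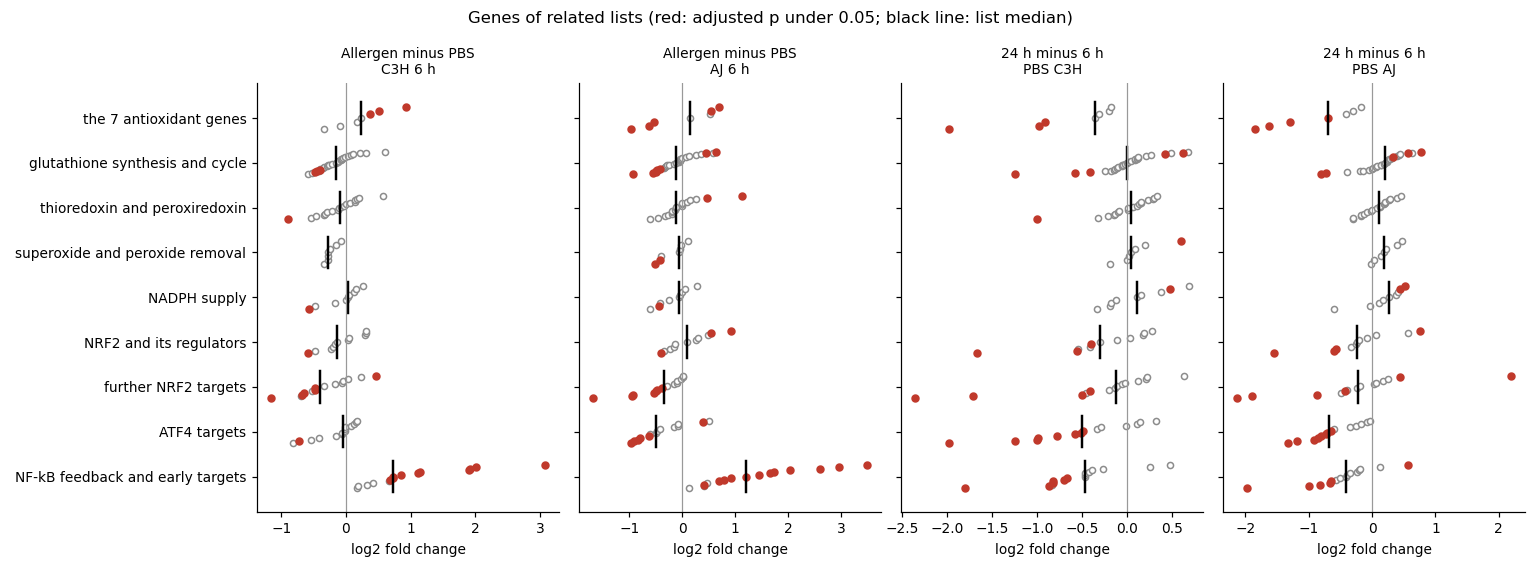
Log2 fold change of every measured gene in 9 lists (each point a gene, red where the adjusted p was under 0.05, black line at the list median) for allergen minus PBS at 6 h and for 24 h minus 6 h among PBS arrays. NF-kB genes lie above 0 with allergen at 6 h, and in AJ 7 of 14 further NRF2 targets and 5 of 14 ATF4 targets fell.

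Markers of leukocytes moved with these changes. At 6 h, 11 of 15 neutrophil markers rose in AJ and 7 of 15 in C3H, with 0 falls. Their sum was 9533 to 12449 after allergen and 1473 to 3599.8 after PBS in AJ, and 5248 to 14064 and 1975 to 3622 in C3H. Of 18 macrophage, monocyte and dendritic cell markers 12 rose in AJ and 8 in C3H, of 10 goblet cell markers 9 and 7 rose, and of 9 club cell markers 3 fell in each strain. Of 12 alveolar epithelium markers 4 fell in AJ and 3 in C3H, and of 6 eosinophil markers 0 rose in AJ and 1 in C3H (Il5ra). Over all genes, 7.03% rose and 12.0% fell in AJ, and 3.93% rose and 3.69% fell in C3H. The mean log2 level of 12 T and NK cell markers was 6.40 after allergen and 5.85 after PBS in AJ, and 6.32 and 6.00 in C3H. For 8 B and plasma cell markers it was 8.18 and 7.13 in AJ, and 8.02 and 7.38 in C3H. S100a8, a neutrophil calcium-binding protein, rose by 3.97 ± 0.46 in AJ and 1.73 ± 0.46 in C3H, and Clca1, a goblet cell product, by 6.64 ± 0.55 and 4.85 ± 0.55. The part of these cells in the changes of the 7 genes was not tested.

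By 24 h after the allergen, 0 of the 7 genes passed in C3H lungs in limma, where 3.24% of all genes passed. At an unadjusted p under 0.05, 3 did (Sod2, Slc7a11 and Srxn1), and the share of all genes at that looser threshold was not counted. In AJ lungs Sod2 was still higher with allergen, and Nqo1 and Gclm were lower. In AJ 1 of 7 rose and 2 fell, where 7.84% of all genes passed. These comparisons share the 24 h PBS arrays with the comparison of the PBS times.

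Nqo1 had 74.2, 66.9, 76.3, 57.2 and 48.7 in AJ lungs 24 h after allergen, against 129.5, 103, 97.9, 129 and 144 after PBS. All allergen arrays were below all PBS arrays, and the log2 change was -0.76 ± 0.15, adjusted p = 0.00039. In C3H lungs Nqo1 had 101, 70.4, 107, 59.8 and 118 after allergen, against 76.0, 99.6, 97.4, 74.6 and 109.5 after PBS, and the groups overlapped (-0.02 ± 0.15, adjusted p = 0.959). Gclm had 149, 131, 149, 198 and 185 in AJ lungs after allergen, against 256, 257, 204, 252 and 246 after PBS, also without overlap (-0.55 ± 0.16, adjusted p = 0.0263). In C3H Gclm changed by -0.18 ± 0.16 (adjusted p = 0.591). The Gclm call in AJ was lost without any of 7 of the 10 arrays (allergen 1, 2 or 3, or PBS 1, 2, 4 or 5), with changes from -0.54 to -0.48 and adjusted p from 0.0505 to 0.0931, and with muscle and adipose markers as covariates (-0.60, adjusted p = 0.0539).

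Sod2 had 843, 804, 842, 775 and 717 in AJ lungs 24 h after allergen, against 617, 595, 709, 602 and 607 after PBS. Every allergen array was above every PBS array, by a small step (0.34 ± 0.10, adjusted p = 0.0241). The call was lost without any of 6 of the 10 arrays (allergen 1, 2 or 3, or PBS 2, 4 or 5), with changes from 0.32 to 0.34 and adjusted p from 0.0512 to 0.064, and with its probe sets averaged (0.26, adjusted p = 0.202). In C3H Sod2 had 653, 807, 754, 673 and 732 after allergen, against 565, 691, 553, 530.0 and 555 after PBS. The change of 0.32 ± 0.10 did not pass (adjusted p = 0.066), and it did without PBS array 2, the highest of its group (0.38, adjusted p = 0.0288), without allergen array 4 (0.34, adjusted p = 0.05), with median centring (adjusted p = 0.0456) and with a pseudocount of 64 (0.0464).

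Srxn1 had 92.9, 90.5, 90.5, 91.3 and 96.4 in AJ lungs 24 h after allergen, against 106, 114, 150.4, 104 and 132 after PBS. The allergen arrays lay within 6 units of each other, below all PBS arrays. Yet the change of -0.33 ± 0.16 in this brightest probe set did not pass (adjusted p = 0.248). In C3H it was at -0.40 ± 0.16 (adjusted p = 0.166), and it passed there only with its probe sets averaged (-0.49, adjusted p = 0.0355) among the settings tried. Slc7a11 had 28.4, 37.0, 35.7, 25.7 and 31.9 in C3H lungs after allergen, against 31.0, 52.1, 60.5, 44.5 and 53.4 after PBS (-0.42 ± 0.15, adjusted p = 0.132). One PBS array, the first, lay among the allergen arrays and the other 4 lay above them. In AJ it was at -0.18 ± 0.15 (adjusted p = 0.605). Gclc was at 0.04 ± 0.20 in AJ and 0.40 ± 0.20 in C3H, and Txnrd1 at 0.04 ± 0.10 and -0.19 ± 0.10, with adjusted p from 0.288 to 0.963.

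At 24 h with allergen, 3.28% of all genes fell and 4.56% rose in AJ, and 1.15% fell and 2.10% rose in C3H. In AJ, 6 of 27 genes of glutathione synthesis and cycle fell and 0 rose, and in C3H 0 passed. Gpx2, an epithelial glutathione peroxidase, changed by -0.96 ± 0.23, Mgst3, a microsomal transferase, by -0.92 ± 0.19, and Gstm1, a cytosolic transferase, by -0.74 ± 0.11. Of 14 further NRF2 targets 4 fell and 1 rose in AJ. Ephx1 averaged 339 ± 18.5 after allergen and 769 ± 86.9 after PBS (-1.14 ± 0.12, adjusted p = 4.55e-09), Blvrb changed by -1.34 ± 0.35, and Hmox1 was the riser, at 0.99 ± 0.25 (adjusted p = 0.00892). In C3H Ephx1 alone passed (-0.42 ± 0.12, adjusted p = 0.0362), and 0 did with median centring. Catalase fell in AJ (-0.73 ± 0.15, adjusted p = 0.00109). Of 9 NADPH genes 3 fell in AJ, led by Idh2 (-0.53 ± 0.15) and Pgd, a pentose phosphate enzyme (-0.43 ± 0.11), and 2 rose in C3H, Tkt, transketolase (0.79 ± 0.21, adjusted p = 0.0245), and Me1, malic enzyme (0.46 ± 0.13). In C3H 0 passed with quantile normalization. In AJ the count of falls among the NADPH genes was 2 with median centring. It was between 0 and 3 over all settings and between 1 and 3 with an array left out.

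Msrb1 rose at 24 h in AJ (0.75 ± 0.13, adjusted p = 0.000125) and in C3H (0.48 ± 0.13, adjusted p = 0.0354), the only thioredoxin and peroxiredoxin gene of 18 to pass in either strain. In C3H the count of risers in this list was between 0 and 1 over the settings and also with an array left out. Of the NRF2 regulators, Sqstm1 fell in AJ (-0.36 ± 0.09) and in C3H (-0.38 ± 0.09), and the C3H call was lost with median centring. NF-kB genes rose in 5 of 15 members in AJ, led by Ccl2 (1.93 ± 0.27), and in 2 of 15 in C3H. Macrophage, monocyte and dendritic cell markers rose in 16 of 18 members in AJ and 10 of 18 in C3H, and neutrophil markers in 5 and 2 of 15. Club cell markers fell in 5 of 9 members in AJ and 0 of 9 in C3H. Muscle markers fell in 6 of 20 in AJ and summed to 3002 to 9145 after allergen and 8122 to 17101 after PBS, and adipose markers fell in 2 of 8. With both tissue lists as covariates, Nqo1 in AJ at 24 h was at -0.56, adjusted p = 0.0281, and Sod2 at 0.41, adjusted p = 0.0294. The part of club cells and leukocytes was not tested.

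The effect of the allergen differed between the times for 3 of the 7 genes in C3H mice, where 0.880% of all genes differed, and for 1 in AJ mice, where 5.62% did. The tests are of the difference itself, the effect at 24 h minus the effect at 6 h. In C3H it was -0.93 ± 0.22, adjusted p = 0.031 for Slc7a11, -0.62 ± 0.14, adjusted p = 0.0242 for Sod2 and -0.56 ± 0.14, adjusted p = 0.0449 for Txnrd1. Slc7a11 was the widest, with an effect of -0.42 at 24 h and 0.51 at 6 h, and Txnrd1 stood at -0.19 at 24 h and 0.37 at 6 h. In AJ it was -0.50 ± 0.14, adjusted p = 0.0262 for Txnrd1. Sod2 in AJ was at -0.36 ± 0.14 and Srxn1, with the opposite sign, at 0.63 ± 0.22, and neither passed (adjusted p = 0.138 and 0.0952).

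These calls depended on single arrays and on the settings. In C3H the Txnrd1 call was lost with any of 14 of 20 arrays left out (allergen 2, 3 or 5 and PBS 1, 2, 4 or 5 at 24 h, allergen 1, 2 or 5 and PBS 1, 2, 3 or 5 at 6 h). The Slc7a11 call was lost with any of 7 (allergen 1 and PBS 3 or 5 at 24 h, allergen 1 and PBS 1, 2 or 3 at 6 h) and the Sod2 call with any of 2 (allergen array 1 at 24 h, -0.58, adjusted p = 0.054, and allergen array 1 at 6 h, -0.62, adjusted p = 0.0505). Without an array the Slc7a11 difference was between -1.04 and -0.86 and that of Txnrd1 between -0.62 and -0.48, with the highest adjusted p at 0.0665 and 0.0986. Other settings also ended the Txnrd1 call in C3H, with adjusted p of 0.147 (median centring), 0.0663 (pseudocount 1), 0.274 (averaged probe sets), 0.0511 (every probe set on its own), 0.121 (only the compared groups) and 0.0802 (letter b arrays left out). The Sod2 call was lost in 3, with 0.0863 (median centring), 0.109 (averaged probe sets) and 0.0572 (only the compared groups), and the Slc7a11 call in 1, with 0.0582 (letter b arrays left out). In AJ the Txnrd1 call was lost without allergen array 5 (-0.47, adjusted p = 0.0532) or PBS array 5 (-0.45, adjusted p = 0.062) at 24 h, without allergen array 3 (-0.45, adjusted p = 0.0633) or PBS array 5 (-0.46, adjusted p = 0.0568) at 6 h, and with quantile normalization (-0.41, adjusted p = 0.076). In AJ Sod2 passed without PBS array 2 at 6 h (-0.47, adjusted p = 0.0184).

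The strains did not differ past the threshold in the response of any of the 7 genes in limma, at 24 h, where 0.460% of all genes differed, or at 6 h, where 2.15% did. At an unadjusted p under 0.05 the count was 1 at 24 h and 3 at 6 h, and the share of all genes at that looser threshold was not counted. The effect in C3H minus that in AJ was 0.74 ± 0.21, adjusted p = 0.0979 for Nqo1 at 24 h, with a 95% interval of 0.32 to 1.16. At 6 h it was 0.69 ± 0.23, adjusted p = 0.103 for Gclm (0.23 to 1.15), 0.62 ± 0.22, adjusted p = 0.156 for Srxn1 (0.17 to 1.08) and 0.53 ± 0.21, adjusted p = 0.207 for Nqo1 (0.11 to 0.94). The falls of Srxn1, Nqo1 and Gclm in AJ are thus not shown to be particular to AJ. Nqo1 at 24 h passed without C3H allergen array 4 (0.86, adjusted p = 0.0248), and Gclm at 6 h without AJ allergen array 1 (0.82, adjusted p = 0.0318). For Sod2 the difference was -0.02 ± 0.14 at 24 h and 0.24 ± 0.14 at 6 h (-0.30 to 0.26 and -0.05 to 0.52).

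Among the pathway genes, the strain difference passed at 6 h for 3 of 14 ATF4 targets, Asns (0.89 ± 0.19), Psat1 (0.78 ± 0.18) and Cth, an enzyme of cysteine synthesis (0.92 ± 0.19). Asns had an allergen effect of -0.02 in C3H and -0.91 in AJ, and Cth of 0.13 in C3H and -0.80 in AJ. It also passed for 2 of 14 further NRF2 targets at 6 h, Hmox1 (1.35 ± 0.36, adjusted p = 0.0305) and Akr1b8 (0.61 ± 0.17), and for 2 at 24 h, Blvrb (2.25 ± 0.49, adjusted p = 0.0278) and Ephx1 (0.72 ± 0.17). Hmox1 had an effect of -0.33 in C3H and -1.68 in AJ at 6 h, and in AJ its effect differed between the times by 2.67 ± 0.36, adjusted p = 3.95e-06. Cth was named after its value was seen.

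Between the strains, few of the 7 genes differed among PBS arrays. At 24 h 0 of the 7 genes differed in limma, where 1.93% of all genes differed, and changes ran from -0.35 for Nqo1 to 0.30 for Srxn1. At an unadjusted p under 0.05 the count was 2, and the share of all genes at that looser threshold was not counted. At 6 h 1 of 7 differed, where 4.45% of all genes did. Srxn1 had 433, 330.2, 302, 316 and 233 in C3H, against 396, 521, 481, 565 and 423 in AJ, with the highest C3H array inside the AJ range (-0.56 ± 0.16, adjusted p = 0.0347). This call was lost without any of 7 of the 10 arrays (C3H 2, 3, 4 or 5, or AJ 2, 3 or 4), at -0.57 to -0.45 with adjusted p from 0.0517 to 0.0976, and with its probe sets averaged (-0.37, adjusted p = 0.122).

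The order of the 8 group means completes the description of each gene. Gclc ranked from AJ allergen at 6 h (2162 ± 258, SD, n = 5) to C3H PBS at 24 h (374 ± 63.8), and the sole step between neighbouring groups without overlap was the one between the lowest 6 h group, AJ PBS (1512 ± 291), and the highest 24 h group, C3H allergen (500.2 ± 90.2). Txnrd1 had its highest mean in AJ allergen at 6 h (1380.0 ± 159) and its lowest in AJ PBS at 24 h (376 ± 43.4), with steps below the top group and between the times. Srxn1 had its highest mean in AJ PBS at 6 h (477 ± 69.0) and its lowest in AJ allergen at 24 h (92.3 ± 2.49). Its step lay between the neighbouring groups AJ allergen at 6 h and C3H PBS at 24 h. Over all arrays the times of Srxn1 overlapped, with 1 array at 24 h at or above the lowest at 6 h. Sod2 had both 6 h allergen groups on top, C3H at 1267 ± 79.1 and AJ at 1166 ± 106, apart from the other 6, which overlapped from neighbour to neighbour down to C3H PBS at 24 h (579 ± 63.9).

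Slc7a11 ran from AJ allergen at 6 h (101 ± 22.3) to C3H allergen at 24 h (31.7 ± 4.77), Gclm from AJ PBS at 6 h (333 ± 74.9) to AJ allergen at 24 h (163 ± 28.1), and Nqo1 from AJ PBS at 6 h (151 ± 9.10) to AJ allergen at 24 h (64.6 ± 11.6). In these 3 genes every group overlapped the next. AJ lungs 24 h after allergen had the lowest means of Gclm, Srxn1 and Nqo1.

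Probe sets of a gene did not always move alike, and adjusted p-values of probe sets are over all probe sets tested on their own. For Gclc, the dimmer probe set 1455959_s_at also put all 20 arrays at 24 h (259 to 423) below all 20 at 6 h (632 to 1586). Between the PBS times it changed by -1.11 ± 0.13 in C3H and -1.60 ± 0.13 in AJ. Unlike the brightest, it was lower in C3H than in AJ in PBS lungs at 6 h (-0.52 ± 0.13, adjusted p = 0.0152). For Txnrd1, 1424486_a_at changed between the PBS times by -1.36 ± 0.22 in C3H and by -0.25 ± 0.22 in AJ (adjusted p = 0.584), so the AJ fall of the brightest probe set was not seen in it. With allergen at 6 h it was at 0.75 ± 0.22, adjusted p = 0.0156 in AJ and 0.09 ± 0.22, adjusted p = 0.901 in C3H. In PBS lungs at 6 h it was higher in C3H than in AJ (0.78 ± 0.22, adjusted p = 0.0357), where the brightest was at -0.10 ± 0.10. The third probe set, 1424487_x_at, had 10 of 40 values below the pseudocount of 16. Of the 20 arrays at 24 h, 14 in 1424486_a_at and 12 in 1424487_x_at were at or above the lowest array at 6 h.

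For Srxn1, 1451680_at and 1425351_at followed the brightest probe set, at -0.93 ± 0.18 and -0.93 ± 0.20 with allergen in AJ at 6 h and at -1.34 ± 0.18 and -1.75 ± 0.20 between the PBS times in AJ. The dimmest, 1419942_at, was at -0.01 ± 0.21, adjusted p = 0.987 with allergen in AJ at 6 h. Between the PBS times in AJ it fell with the other 3 (-0.79 ± 0.21, adjusted p = 0.0283). With allergen in AJ at 24 h, 3 of the 4 Srxn1 probe sets were lower and 1 was higher, and 1 of the 4 passed. There 1451680_at had a mean log2 level of 6.75 after allergen and 7.33 after PBS, and 1419942_at had 6.62 and 6.08. For Sod2, 1448610_a_at rose with allergen at 6 h by 1.05 ± 0.16 in C3H (adjusted p = 3.21e-05) and rose in AJ as well (adjusted p = 1.68e-05), and the dim 1417194_at was at 0.47 ± 0.17 in C3H (adjusted p = 0.109) and 0.29 ± 0.17 in AJ (adjusted p = 0.295). The smaller Sod2 change in AJ at 24 h was at 0.38 ± 0.16 in 1448610_a_at (adjusted p = 0.209).

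**Figure D4:**
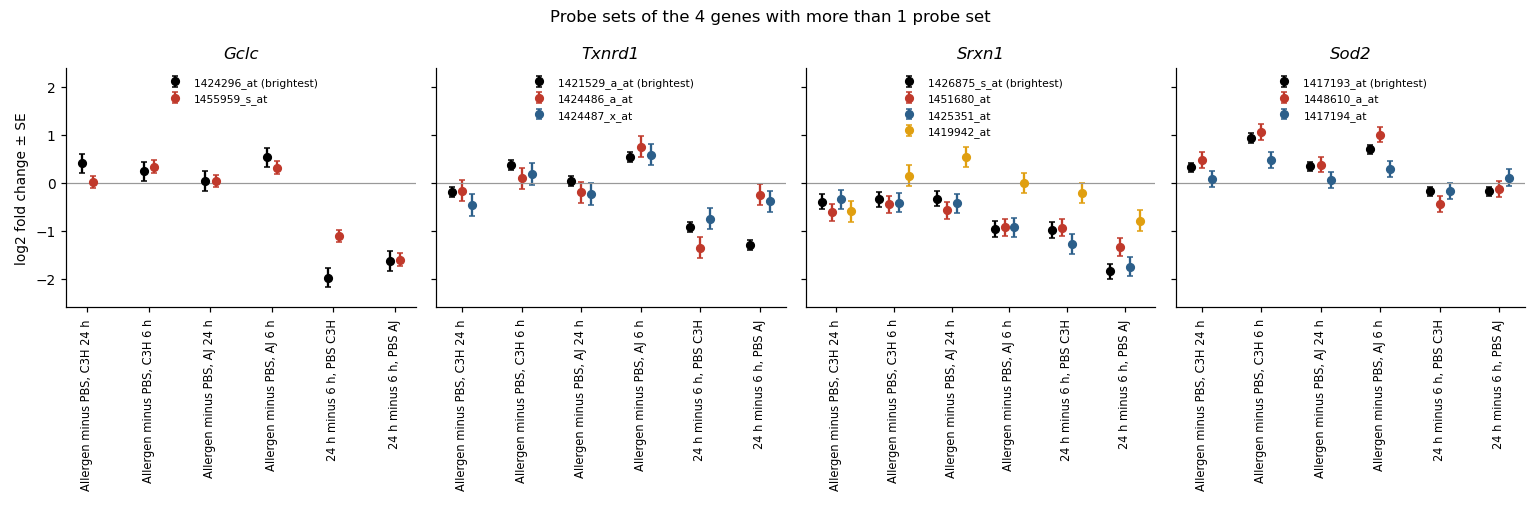
Log2 fold change ± SE of every probe set of the 4 genes with more than 1, in 6 comparisons, allergen minus PBS and 24 h minus 6 h. Both Gclc probe sets fall between the PBS times, and 1419942_at of Srxn1 lies near 0 with allergen in AJ at 6 h, where the other 3 lie below it.

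Likeness across the 40 arrays was measured as Pearson's r of log2(intensity + 16) against 5606 genes with a mean log2 level of at least 7. These values describe arrays that share time, strain and treatment, and carry no test. The 7 genes were left out of the ranking given here, and pairs among them follow below. Outside the 7 genes, Gclc was most like Tnfrsf12a, a TNF family receptor (0.91), Nfkbia, the NF-kB inhibitor (0.90), and Mt1, a metallothionein (0.88). Outside the 7, Txnrd1 was most like Tlr2, an innate sensor (0.90), Tnfrsf12a (0.90) and Nfkbia (0.89). Sod2 was most like Ctps, a CTP synthetase, Cxcl1 and Il1b, each at 0.90. Srxn1 was most like Sqstm1 (0.86), Ifrd1 (0.85) and Pon1, a paraoxonase (0.83), Nqo1 like Pon1 (0.79), Sqstm1 (0.68) and Scel (0.66), and Gclm like Tns2 (0.67), Sqstm1 (0.66) and Pon1 (0.66). Slc7a11 was most like Prss22, a serine protease (0.86), Akr1b8, an aldo-keto reductase and NRF2 target (0.85), and Aen, a nuclease (0.80).

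Among the 7 genes, Gclc and Txnrd1 were the most alike (0.93), followed by Slc7a11 with Txnrd1 (0.84) and with Gclc (0.79). Gclc and Gclm, which encode the subunits of the same enzyme, were at 0.43. Sod2 stood closest to Txnrd1 (0.64) and was near 0 with Gclm (0.06) and Nqo1 (-0.05).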

How the data were processed

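Whole-lung RNA was measured on 40 single-channel Affymetrix arrays. The authors deposited 1 linear intensity per probe set and array. From the values, arrays had been scaled to a common 2% trimmed mean (150.04 to 150.05, medians 63.7 to 81.3); software is not given in the sources used here. Correlations between arrays were 0.875 to 0.985, and no 2 arrays held the same values. Of 22690 probe sets, 64 were controls, 20380 carried 1 symbol in the platform annotation, 691 several and 1555 none, and those with several or none were left out. The brightest probe set stood for each of 12393 genes. limma 3.58.1 in R 4.3.3 (lmFit, eBayes) fitted 8 group means to log2(intensity + 16) over 40 arrays, with 32 residual and 4.62 prior degrees of freedom, and 12 contrasts were adjusted each over all genes at 0.05. The fit was tested on simulated data. Precision is limited by 5 arrays per group.

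The 7 genes and the 8 pathway and 14 cell marker lists were chosen with earlier results of these data known. Named from the pathway lists were up to 3 genes with the largest passing change in each allergen comparison, 9 regulators and enzymes in any case, and others where the text says so. Gene names matched the platform annotation, and 6 of 7 genes a RefSeq promoter. Replicate numbers did not pair the arrays: in none of 8 comparisons did every same-numbered pair correlate above 0.1. Alternatives were other scalings, pseudocounts, filters, probe set rules and fits, the replicate block, tissue markers as covariates and each array left out.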

Additional observations from a re-analysis of the deposited data

Results flagged for a closer look

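In 4 of 56 groups of 5 arrays, 1 array stood apart from the other 4 by a gap of more than 0.71 of the group's whole range. Chance flags about 1 in 20 such groups. Gclm in AJ PBS lungs at 24 h had its lowest array at a gap of 0.796 (204 against 246 to 257). Slc7a11 in C3H allergen lungs at 6 h had its lowest array at a gap of 0.811 (65.6 against 101 to 111). Sod2 had its highest array apart in PBS lungs at 24 h in both strains, with a gap of 0.758 in C3H (691 against 530.0 to 565) and 0.792 in AJ (709 against 595 to 617).

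The effect of the allergen at 24 h differed from that at 6 h by limma's test of the difference in 4 cases. In C3H the difference was -0.93 for Slc7a11, -0.56 for Txnrd1 and -0.62 for Sod2 on the log2 scale, and in AJ it was -0.50 for Txnrd1.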

How the results depend on the processing

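The falls of Gclc, Txnrd1 and Srxn1 among PBS arrays at 24 h in both strains, and of Slc7a11 in AJ, kept their direction and side of the threshold in all 12 alternatives and with each array left out (3 calls in C3H and 4 in AJ throughout). Over all 84 results on the 7 genes, 973 of 1008 values under the alternatives kept their side of the threshold. Of the rest, 27 lost the call and 8 gained it. Where either fit passed, 0 changed sign. Where neither passed, signs were not counted, and some changed. Txnrd1 with allergen in AJ at 24 h, for example, was at 0.04 and reached -0.13. With arrays left out, 1056 of 1120 kept their side of the threshold, 57 lost the call and 7 gained it. Here too 0 changed sign where either fit passed. Gclc with allergen in AJ at 24 h, which did not pass, went from 0.04 to -0.12. For pathway genes only the 183 results that passed in the main fit were followed, so a call could be lost but not gained. Of their 4282 values under the alternatives and with arrays left out, 583 lost the call. The number of the 7 genes passing with allergen in C3H at 24 h was 1, against 0, with median centring, a pseudocount of 64 or averaged probe sets, and at 6 h it was 1, against 3, with only the compared groups fitted. The count for the time difference in C3H was 1, against 3, with median centring, averaged probe sets, only the compared groups or the 2 letter b arrays left out. In AJ it was 0 with quantile normalization and 2 with a pseudocount of 64 or only the compared groups, against 1. For C3H against AJ in PBS lungs at 6 h it was 0, against 1, with averaged probe sets, only the compared groups, tissue covariates or the letter b arrays left out. With an array left out, counts for allergen ranged from 0 to 1 (C3H 24 h), 1 to 3 (C3H 6 h), 1 to 3 (AJ 24 h) and 4 to 6 (AJ 6 h), for strain differences from 0 to 1 at each time, for time differences from 0 to 3 (C3H) and 0 to 2 (AJ), and for strains among PBS arrays from 0 to 0 at 24 h and 0 to 1 at 6 h. The cause was not tested. The replicate block, which the numbering does not support, lost only the Txnrd1 time difference in C3H (-0.56, adjusted p = 0.0543) among the calls on the 7 genes. Counts over all genes moved by over 1.5 times as follows. With only the compared groups fitted, which leaves fewer samples, 161 passed against 402 (C3H 24 h), 370 against 944 (C3H 6 h), 112 against 267 (strain difference at 6 h), 32 against 109 (time difference in C3H), 176 against 552 (strains among PBS at 6 h), 191 against 398 (PBS times, C3H) and 407 against 666 (PBS times, AJ). With tissue covariates it was 594 against 971 (AJ 24 h), 6 against 57 (strain difference at 24 h) and 276 against 666 (PBS times, AJ). With every probe set on its own it was 3551 against 2358 (AJ 6 h), 424 against 239 and 975 against 552 (strains among PBS at 24 h and 6 h). Without 1 array it reached 188 and 620 (C3H 24 h), 19 and 177 (strain difference at 24 h), 29 (time difference in C3H), 306 (strains among PBS at 6 h) and 342 (PBS times, AJ). Median centring changed the split of higher and lower calls from 260 and 142 to 294 and 75 (C3H 24 h), 871 and 1487 to 1002 and 1045 (AJ 6 h), 28 and 29 to 27 and 16 and 142 and 125 to 68 and 136 (strain differences at 24 h and 6 h), 54 and 55 to 55 and 36 and 437 and 260 to 288 and 273 (time differences in C3H and AJ), and 359 and 307 to 250 and 369 (PBS times, AJ). Dim probe sets such as 1424487_x_at, with values under the pseudocount, limit what can be seen.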
